A study of Oedaleus asiaticus with 9 samples.

Results

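The final moult of the grasshopper *Oedaleus asiaticus*, a pest of Asian grasslands, turns the 5th instar nymph into a winged adult. Small RNA libraries from adult females taken 3 days after emergence were compared with libraries from 5th instar females at an age of 3 days, across every miRNA entry of the deposited count table. These were 6 of the 9 libraries of the series, 3 per stage, and the other 3 came from 3rd instar females of the same age in days. All animals were kept under ordinary feeding with no special treatment. The sources used here do not give the body part that was sampled. They also do not say that replicates were separate animals. The p-values set a difference between stages against the spread of these samples, and that spread may be technical. The table holds 365 entries, of which 291 bear a known family name with a suffix x, y or z and 74 were predicted by the authors, and 179 had enough counts to be tested.

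A miRNA is a short RNA that guides an Argonaute protein to messenger RNAs and lowers their output, and it finds them mainly through its seed, the bases 2 to 8 from the 5′ end. In insects the moults are timed by pulses of the steroid ecdysone, while juvenile hormone decides whether a moult leads to another nymph or to an adult. Several insect miRNAs act in this system. In the cockroach Blattella germanica the miR-2 family clears the messenger of Krüppel homolog 1 (Kr-h1), the juvenile hormone effector, at the final moult, and in flies the let-7 complex and miR-34 respond to ecdysone in opposite directions.

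The sequences on which the comparison turned were taken from the deposited table and are given 5′ to 3′ with T for U, and capitals mark the seed. The first set holds the 3 entries that passed an adjusted p of 0.05, together with miR-79-x, which has the same seed as miR-9-z and differs from it by T1C alone (position from the 5′ end, base of miR-9-z first).
miR-277-y: tAAATGCActatctggtacgaca
miR-9-z: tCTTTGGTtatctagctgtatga
miR-79-x: cCTTTGGTtatctagctgtatga
miR-2788-y: cAATGCCCttggaaatcc
The second set shows the relatives of miR-277-y in its fly cluster, with 2 forms of miR-317.
miR-34-x: tGGCAGTGtggttagctggttgt
miR-317-x: gGGGAGCCactctgagttcact
miR-317-y: tGAACACAgctggtggtatct
The third set shows forms of miR-8 that share 1 seed and differ at the 3′ end, with the muscle miRNA miR-1 and the Hox cluster miRNA miR-10.
miR-8-y: tAATACTGtcaggtaacgatgtc
miR-8-z: tAATACTGtcaggtaacgatgtct
miR-236-z: tAATACTGtcaggtaacgatgtta
miR-1-y: tGGAATGTaaagaagtatggag
miR-1-z: tGGAATGTaaagaagtatggat
miR-10-x: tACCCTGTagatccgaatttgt
The last set shows 2 entries of 18 nt that end in the same 3 bases, of which the second was predicted by the authors, and the predicted 18 nt entry that dominated every library.
miR-9993-y: aTCTCGGTgggacctcca
predicted 18 nt entry with the seed ACCACGC: aACCACGCtctgctacca
predicted 18 nt entry with the seed ATGTCGA: gATGTCGAtgggggccgt

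Depth and composition differed between libraries within each stage. The counts over all entries summed to 2010196, 1918962 and 2282357 at the 5th instar. In adults they summed to 1462586, 3651172 and 3955332, so adult library 1 was the shallowest. The predicted entry with the seed ATGTCGA took 64.6 ± 3.09% of the 5th instar counts and 66.3 ± 6.98% of the adult counts (mean ± SD, n = 3). A count of 0 allowed up to 3 counts, which is 1.13 to 1.45 normalised CPM (counts scaled to a common library total) in a 5th instar library and 0.652 to 1.99 in an adult library. These floors cover counting error only. Replicates of a stage differed by more than sampling noise, with a chi-square of at least 67.2 per degree of freedom between any 2 of them, and each was kept as a sample. That value reached 646 between adult libraries 1 and 2, while between a 5th instar and an adult library it ran from 64.7 to 543. Libraries of 1 stage could thus differ as much as libraries of the 2 stages compared. Fold changes below are adult over 5th instar and levels are normalised CPM.

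Across the final moult 1 miRNA rose and 1 fell by the study's own limits, a log2 fold change beyond 1 in either direction with an adjusted p below 0.05. These 2 calls made up 1.12% of the 179 tested entries. With only the libraries of the 2 stages in the fit, 0 entries were called. Another entry, miR-9-z, passed the adjusted p without reaching the fold limit, so 1.68% passed the adjusted p alone, and 18 entries, 10.1%, had an unadjusted p under 0.05. Over all tested entries 104 were higher and 75 lower in adults, with a median log2 fold change of 0.079. Over the alternative settings that median ran from -0.035 with library totals alone to 0.11 with totals that leave out the 5 most abundant entries. The libraries of the 2 stages did not overlap for 25 entries, 14%, of which 16 (8.94%) were higher and 9 (5.03%) lower in adults. With 3 libraries against 3 an exact rank test cannot give a p under 0.1, so a lack of overlap is not evidence of a difference by itself. Libraries made from bulk RNA cannot tell fewer cells of a type apart from less of a miRNA per cell.

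**Figure D1:**
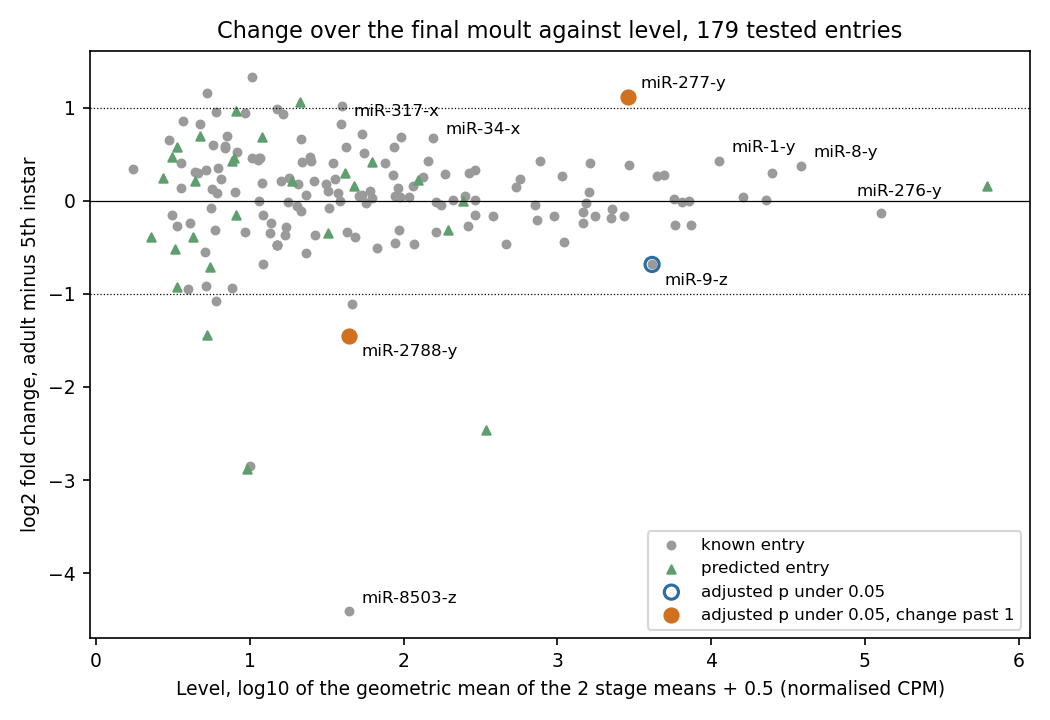
Log2 fold change (adult minus 5th instar) of the 179 tested entries against their level (log10 of the geometric mean of both stage means plus 0.5 normalised CPM). Circles are known and triangles predicted entries, and only miR-277-y and miR-2788-y (filled orange) passed both limits, while miR-9-z (open blue circle) passed the adjusted p alone.

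The miRNA that rose was miR-277-y, which in flies controls the breakdown of branched-chain amino acids and in the mosquito Aedes aegypti acts on insulin-like peptides. Its level was 1752, 1934 and 2229 CPM at the 5th instar and 5783, 3266 and 3779 CPM in adults. Every adult library lay above every 5th instar library, and adult library 1 stood well above the other 2. The stage means were 1972 ± 240.5 and 4276 ± 1330.3 CPM (SD, n = 3), a 2.17-fold difference, with a log2 fold change of 1.12 ± 0.20 (SE) and an adjusted p of 0.0151 (quasi-likelihood test of edgeR, Benjamini-Hochberg). The 3rd instar libraries held 1717 ± 112 CPM. Without adult library 1 the log2 fold change was 0.82 at an adjusted p of 0.0133, which is under the fold limit. The adjusted p was 0.0932 without 5th instar library 1, 0.0532 without 5th instar library 2 and 0.0578 without adult library 3. It was 0.0848 with only the 2 stages fitted and 0.0715 with library totals alone as the scale.

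In flies miR-277 is made from 1 locus with miR-317 and miR-34, and miR-34 is known there for its part in ageing and for its repression by ecdysone. The table held 7 entries of these families and 6 were tested, all 6 of them higher in adults, although with library totals alone as the scale miR-317-y and miR-317-z were lower, and with RLE factors or DESeq2 miR-317-z was. Their median log2 fold change was 0.74, against 0.079 over all tested entries, and miR-277-y was the 1 that passed the test. The entry miR-317-x stood at 29.6, 29.0 and 29.3 CPM in the 5th instar and at 56.2, 42.9 and 56.0 CPM in adults. Its 5th instar libraries were nearly equal and the stages did not overlap, but its log2 fold change of 0.82 ± 0.22 had an adjusted p of 0.122. The entry miR-34-x held 119, 134 and 113 CPM before the moult and 202, 172 and 207 CPM after it. Again no adult library fell within the 5th instar range, and the log2 fold change was 0.67 ± 0.19 with an adjusted p of 0.173. A form of miR-34 that is longer at the 3′ end, miR-34-z, had 4.36, 3.80 and 3.38 and then 12.6, 4.97 and 5.65 CPM, with a log2 fold change of 0.95 ± 0.51, an adjusted p of 0.472 and a log2 fold change of 0.45 without adult library 1.

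The most abundant form of miR-317 had a log2 fold change near 0. For miR-317-y the levels were 1461, 1555 and 1635 CPM in the 5th instar and 1556, 1763 and 1639 CPM in adults. The stages overlapped, with a log2 fold change of 0.092 ± 0.13 and an adjusted p of 0.816, and with library totals alone as the scale it was -0.013. The longer form miR-317-z had a log2 fold change of 0.046 ± 0.27 with an adjusted p of 0.969, its stages overlapped too, and without adult library 1 it was -0.29. Because both come from the same library, a ratio of entries needs no scaling between libraries. Per 100 counts of miR-317-y the 5th instar libraries held 119.9, 124 and 136 counts of miR-277-y and the adult libraries 372, 185 and 231, so the adults were higher in each library. Per 100 counts of miR-34-x they held 1476, 1444 and 1970.4 counts of miR-277-y in the 5th instar and 2866, 1893 and 1826 in adults, and here the stages overlapped. Likewise miR-317-x made up 1.89 ± 0.118% of the miR-317-y count in the 5th instar and 3.16 ± 0.633% in adults, again without overlap.

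**Figure D2:**
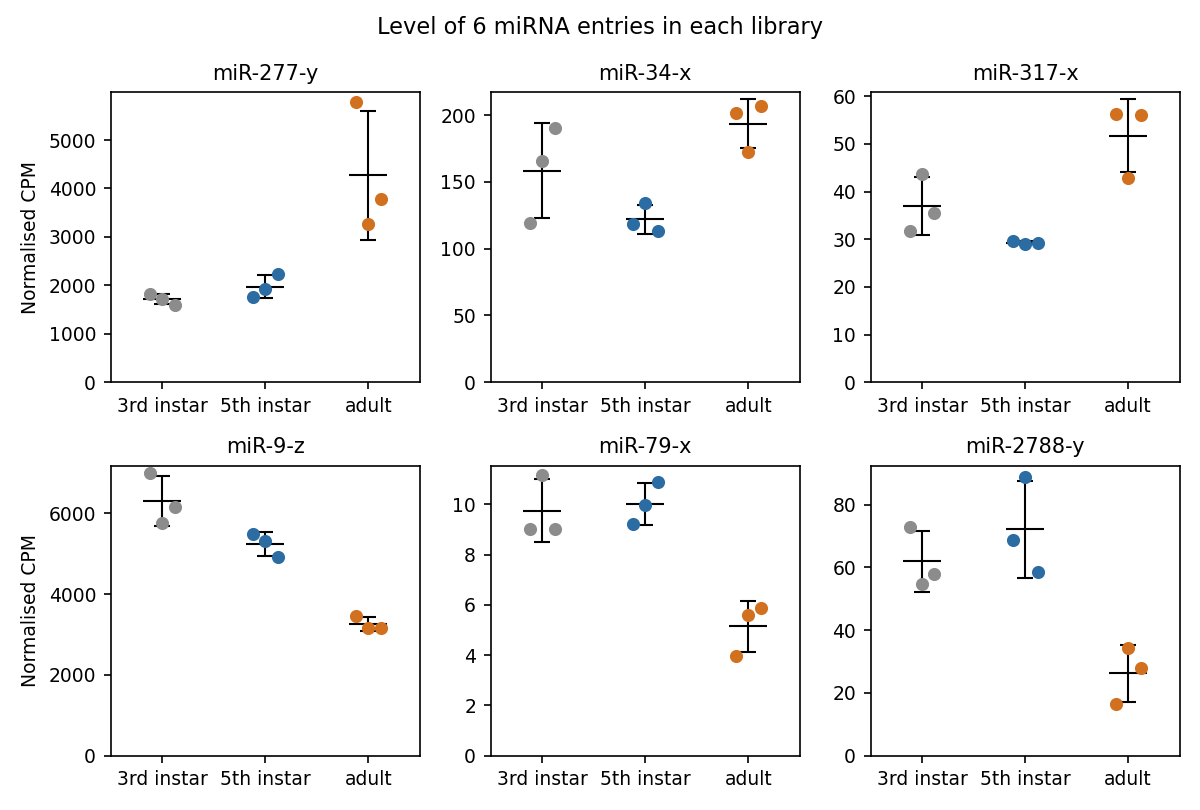
Normalised CPM of 6 entries in each library (points, in the order of replicate number) with the mean and SD of each stage (bars, n = 3), for the 3rd instar (grey), the 5th instar (blue) and the adult (orange). The adult libraries lie above all 5th instar libraries for miR-277-y, miR-34-x and miR-317-x and below all of them for miR-9-z, miR-79-x and miR-2788-y.

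The miRNA that fell was miR-2788-y, an entry of 18 nt from an insect family. It stood at 68.8, 88.8 and 58.6 CPM before the moult and at 16.5, 34.2 and 27.8 CPM after it. The stages did not overlap, and adult library 1 was the lowest of all. The means of 72.1 ± 15.4 and 26.2 ± 8.94 CPM differed 2.75-fold, with a log2 fold change of -1.45 ± 0.28 and an adjusted p of 0.0151. In the 3rd instar the level was 61.9 ± 9.63 CPM, within the range of the 5th instar libraries or just under it. The adjusted p was 0.0932 without 5th instar library 1, 0.0806 without 5th instar library 2 and 0.095 without adult library 3, with log2 fold changes between -1.55 and -1.29. It was 0.0722 with only the 2 stages fitted and 0.0526 with totals that leave out the 5 most abundant entries.

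The entry miR-9-z was lower in adults at a high level. In flies miR-9a keeps the number of sense organ precursors in check and acts in the wing. The libraries held 5482, 5323 and 4920.4 CPM at the 5th instar and 3457, 3171 and 3156 CPM in adults. The replicates of each stage lay close together and the stages were well apart. Means were 5242 ± 289 and 3261 ± 169.8 CPM, with a log2 fold change of -0.68 ± 0.13 and an adjusted p of 0.0151. Leaving out a library moved the adjusted p above the threshold for 5th instar library 1 (0.149), 5th instar library 2 (0.0532), adult library 2 (0.0667) and adult library 3 (0.095), at log2 fold changes of -0.78 to -0.66 over every alternative run. It was also above it with library totals alone (0.0715) and with totals that leave out the 5 most abundant entries (0.0556).

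Its near copy miR-79-x, with the same seed, was also on the lower side, at a far smaller level. It had 9.21, 9.97 and 10.9 CPM in the 5th instar and 3.97, 5.59 and 5.86 CPM in adults. The stages did not overlap, and the log2 fold change was -0.93 ± 0.35 with an adjusted p of 0.296. Since the 2 sequences differ at 1 end base, how the authors' counting split reads between them is unknown. The counts of both summed as 1 seed family gave a log2 fold change of -0.74 ± 0.12 with an adjusted p of 0.0116 among 131 tested seed families, of which 2.29% passed the adjusted p and 1.53% also passed the fold limit. The families that passed both limits were those of miR-277-y (1.06 ± 0.19, adjusted p 0.0168) and miR-2788-y (-1.50 ± 0.30, adjusted p 0.0269), each the sole entry of its seed. Neither passed both limits without 3rd instar library 3, 5th instar library 1 or 2, or adult library 1 or 3. The same held with the replicate number as a block, with only the 2 stages fitted and with library totals alone as the scale.

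Some fly miR-9 genes lie together with miR-79 and miR-306, and whether the gene of miR-9-z does so here is not known. The other entries of these families had log2 fold changes near 0. The list held 8 entries, of which 6 were tested, 1 higher and 5 lower, with a median of -0.034. For miR-306-x, among the 10 most abundant entries, the libraries had 6786, 7067 and 7643 CPM before and 8142, 6727 and 6535 CPM after the moult. These values overlapped, with a log2 fold change of -0.0063 ± 0.14 and an adjusted p of 0.995. The entry miR-9-x had a log2 fold change of -0.052 ± 0.17 with an adjusted p of 0.950. Per 100 counts of miR-9-y, miR-9-z had 3294 ± 474 counts in the 5th instar and 2036 ± 62.5 in adults, and these values did not overlap.

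Muscle miRNAs were all on the higher side in adults. The miRNA miR-1 is made in muscle and miR-133 accompanies it. Of 6 entries 4 were tested, all 4 higher, with a median of 0.43 and no adjusted p under 0.296. Levels of miR-1-y were 9176, 10012 and 10120.4 CPM in the 5th instar and 16149.6, 11399.9 and 11900.2 CPM in adults. The stages did not overlap, with a log2 fold change of 0.43 ± 0.17 and an adjusted p of 0.296. The form miR-1-z, which differs from miR-1-y by G22T alone, held 123, 125 and 123 CPM and then 163, 169 and 164 CPM. Its replicates were the most even of the group, with a log2 fold change of 0.42 ± 0.15 and an adjusted p of 0.296. For miR-133-z the values were 216, 282 and 277 CPM and 378, 305 and 289.8 CPM. They did not overlap either, at a log2 fold change of 0.33 ± 0.17 and an adjusted p of 0.472. Summed over the list, muscle miRNAs made up 9531, 10442 and 10547 CPM in the 5th instar libraries and 16727, 11898 and 12383 CPM in the adult ones. Adult library 1 was the highest of the 6 for the sum and for 3 of the 4 tested entries. Without it the log2 fold change was 0.24 for miR-1-y, 0.31 for miR-1-x and 0.19 for miR-133-z, but 0.42 for miR-1-z, and without 5th instar library 1 it was 0.23 for miR-1-x and 0.16 for miR-133-z.

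Neuronal miRNAs summed to a lower level in adults, and miR-9-z is itself on that list. The sum was 13913 ± 820.4 CPM in the 5th instar and 10670.2 ± 663 CPM in adults, while of the 11 tested entries 4 were higher and 7 lower with a median of -0.052. Most of both sums came from 3 entries, so the sums say little about the other members. Their 5th instar and adult means were 5242 and 3261 CPM for miR-9-z, 6354 and 5293 CPM for miR-279-z, and 1852 and 1651 CPM for miR-279-y. No member of the list other than miR-9-z passed the adjusted p. The entry miR-279-z, which in flies prevents the formation of extra carbon dioxide sensing neurons, had a log2 fold change of -0.26 ± 0.14 and an adjusted p of 0.472. For miR-210-y, which fly photoreceptors contain, it was 0.66 ± 0.32 with an adjusted p of 0.469 and no overlap, and for miR-137-y it was -0.28 ± 0.32. Whether the muscle and neuron sums have a part in any other result was not tested.

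Entries of the Hox cluster were mostly on the lower side. There miR-10 and iab-4 lie among the Hox genes that set segment identity. Of 7 tested entries, which hold 4 distinct sequences, 1 was higher and 6 were lower, with a median of -0.48. The iab-4-x sequence fills 4 of these entries, and the median is its value. By sequence, those of miR-10-x, miR-10-y and iab-4-x were lower and that of miR-993-y was higher. The libraries gave miR-10-x 586, 584 and 463 CPM in the 5th instar and 416, 438 and 326 CPM in adults. The stages did not overlap, and the log2 fold change of -0.47 ± 0.17 had an adjusted p of 0.296. The other arm, miR-10-y, went from 28.1, 33.2 and 21.0 CPM to 16.5, 18.03 and 20.9 CPM. The highest level among adults lay just under the lowest of the 5th instar, with a log2 fold change of -0.56 ± 0.26 and an adjusted p of 0.439. The log2 fold change was -0.48 ± 0.38 for iab-4-x and 0.43 ± 0.38 for miR-993-y, at adjusted p-values of 0.635 and 0.639.

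**Figure D3:**
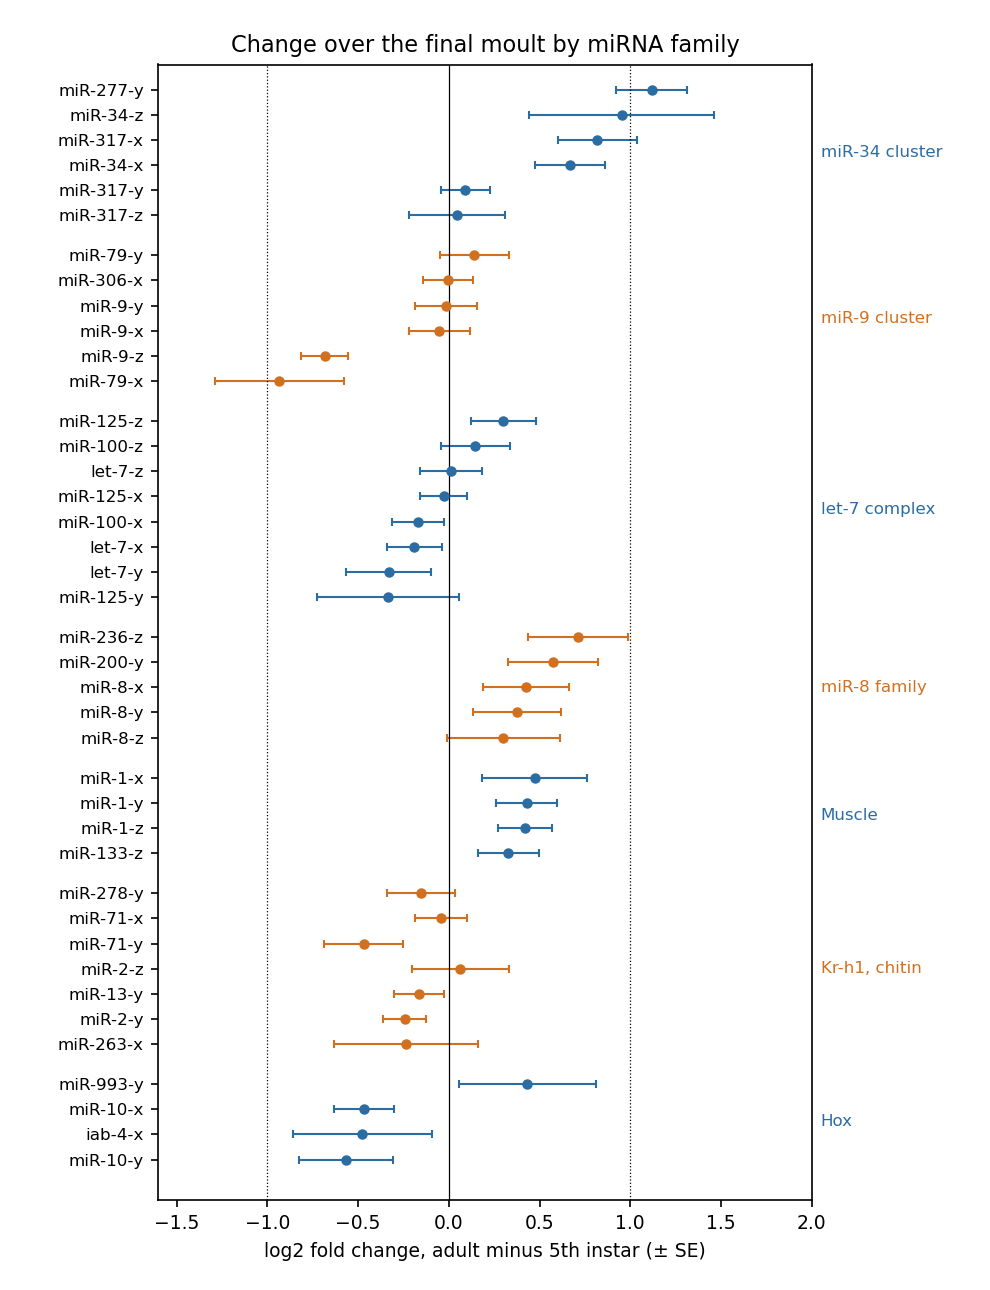
Log2 fold change (adult minus 5th instar, points) with its SE (bars) for tested entries of 7 families or lists, labelled at the right, with dotted lines at the fold limit. All 6 entries of the miR-34 cluster (miR-317-y and miR-317-z not with library totals alone, nor miR-317-z with RLE factors or DESeq2) and all 4 muscle entries lie above 0, while 3 of the 4 Hox sequences lie below it and the let-7 complex lies on both sides.

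No entry of the families tied to the hormones of moulting passed the adjusted p. The let-7 complex, which in flies holds let-7, miR-100 and miR-125 and drives the remodelling of nerve and muscle at metamorphosis, had 8 tested entries, 3 higher and 5 lower, with a median of -0.10. The log2 fold change was -0.19 ± 0.15 for let-7-x, -0.17 ± 0.14 for miR-100-x and -0.027 ± 0.13 for miR-125-x, and their adjusted p-values were 0.635, 0.635 and 0.969. The longer form miR-125-z had 237, 234 and 243 CPM in the 5th instar and 357, 259.8 and 262 CPM in adults. These libraries did not overlap, at a log2 fold change of 0.30 ± 0.18 and an adjusted p of 0.472, and without adult library 1 it was 0.12.

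In the list for ecdysone signalling and moulting, 22 entries were tested, 12 higher and 10 lower, with a median of 0.016. One of its members, miR-14-y, limits the ecdysone receptor in flies. It held 5892, 4834 and 6261 CPM before and 5881, 5573 and 5792 CPM after the moult. The adult values lay inside the 5th instar range, with a log2 fold change of 0.022 ± 0.15 and an adjusted p of 0.969. The entry miR-281-x, a family that acts on an ecdysone receptor isoform in the silkworm, had a log2 fold change of 0.41 ± 0.24 and an adjusted p of 0.472, and it was highest in adult library 1, without which it was 0.093. For miR-71, which with miR-263 acts on chitin synthesis in the locust Locusta migratoria, miR-71-x had a log2 fold change of -0.042 ± 0.15, miR-71-y of -0.47 ± 0.22 and miR-263-x of -0.23 ± 0.40, with adjusted p-values of 0.950, 0.439 and 0.845, and without 5th instar library 1 miR-263-x was at 0.062.

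The list for juvenile hormone signalling had 10 tested entries, 2 higher and 8 lower, with a median of -0.16 and no entry past the adjusted p. Levels of miR-2-y, named for the family that clears Kr-h1 in the cockroach, were 1516, 1601 and 1661 CPM in the 5th instar and 1421, 1314 and 1299 CPM in adults. The adult libraries lay below the 5th instar libraries, with a log2 fold change of -0.24 ± 0.12 and an adjusted p of 0.469. The seed of miR-2-y, CACAGCC, is not the seed ATCACAG that miR-13-y, miR-11-y and miR-2-z share. Whether miR-2-y has the targets of those entries was not tested. The entry miR-13-y gave a log2 fold change of -0.16 ± 0.14 with an adjusted p of 0.635. For miR-278-y, which with let-7 acts on Kr-h1 in the locust, the values were -0.15 ± 0.19 and 0.757. Of the K-box families, which bind a shared motif in fly messengers, 4 entries were tested, 1 higher and 3 lower, with a median of -0.20. They were matched by family number and include miR-2-y with its other seed.

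A pair of neighbours at the fly E2f1 gene, miR-11 and miR-998, were both on the lower side. For miR-998-y the values were 88.7, 79.8 and 68.4 CPM in the 5th instar and 59.5, 54.7 and 52.1 CPM in adults. The stages did not overlap, with a log2 fold change of -0.51 ± 0.19 and an adjusted p of 0.296. The log2 fold change of miR-11-y was -0.39 ± 0.22 with an adjusted p of 0.472. Another entry without overlap, miR-2765-x, had 1134, 1549 and 1166 CPM and then 971, 947 and 921 CPM. Its 3rd instar level of 2671 ± 422 CPM was higher than both, and the adult log2 fold change was -0.44 ± 0.16 with an adjusted p of 0.296. For miR-92-y the log2 fold change was -0.46 ± 0.21 at an adjusted p of 0.439.

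Several abundant families were highest in adult library 1, as were 4 of the 6 tested entries of the miR-34 cluster, miR-277-y among them. The family of miR-8 promotes body growth through insulin signalling in the fat body of flies. Levels of miR-8-y were 35989, 32026 and 32667 CPM in the 5th instar and 65210.4, 35118 and 30223 CPM in adults. Adult libraries 2 and 3 lay within or next to the 5th instar range and adult library 1 well above it. The log2 fold change was 0.37 ± 0.24 with an adjusted p of 0.545, and without adult library 1 it was -0.054. For miR-8-z it was 0.30 ± 0.31 (adjusted p 0.739) and -0.19 without that library. All 5 tested entries with the miR-8 seed were higher in adults, with a median of 0.46, and all 5 had their highest value of the 6 libraries in adult library 1. They include miR-236-z (0.71 ± 0.28, adjusted p 0.296) and miR-200-y (0.57 ± 0.25, adjusted p 0.426), which have 1 sequence but different counts, so reads of that sequence may be split between them. Without adult library 1 they were at 0.37 and 0.24. The opposite arm, miR-8-x, was likewise highest in adult library 1, with 748, 698 and 556 CPM in the 5th instar and 1276, 803 and 608 CPM in adults, and its log2 fold change of 0.42 ± 0.24 was 0.066 without that library.

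The same library was highest for the fly cluster of miR-283 and miR-12. The entry miR-283-x had 4568, 4590.4 and 4364 CPM in the 5th instar and 6898, 4614 and 4833 CPM in adults. There was no overlap, although adult library 2 exceeded the highest 5th instar library by little, and the log2 fold change was 0.27 ± 0.16 with an adjusted p of 0.472. An entry that extends it at the 3′ end, miR-216-z, had 79.9, 76.9 and 69.1 CPM and 171, 81.4 and 110.1 CPM. Its log2 fold change of 0.68 ± 0.25 had an adjusted p of 0.296. Values of miR-12-z overlapped between the stages, with a log2 fold change of 0.27 ± 0.21, and without adult library 1 it was -0.063. The entry miR-3477-x, also highest there, had a log2 fold change of 0.38 ± 0.18 and an adjusted p of 0.439. Of all 179 tested entries, 47 had their highest value of the 6 libraries in adult library 1, 45 in adult library 2 and 13 in adult library 3. Without adult library 1 the log2 fold change was 0.050 for miR-283-x, 0.33 for miR-216-z and 0.11 for miR-3477-x.

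**Figure D4:**
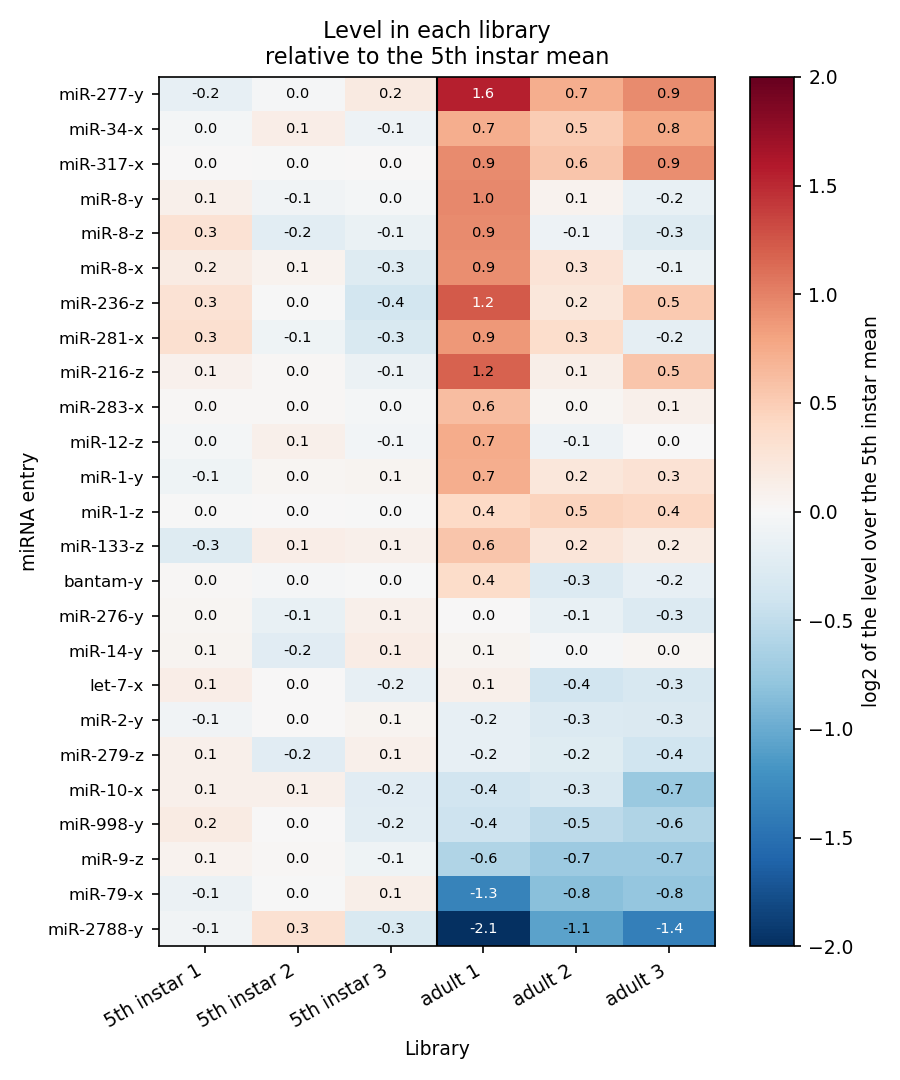
Level of 25 entries (rows) in each 5th instar and adult library (columns), as log2 of the library's level over the 5th instar mean (printed value and colour, red higher, blue lower, with colours ending at 2). Adult library 1 stands above the other adult libraries for miR-277-y, the miR-8 forms, miR-281-x, miR-216-z and miR-12-z. In every adult library miR-277-y, miR-34-x, miR-317-x and miR-1-z are higher, and miR-9-z, miR-79-x and miR-2788-y lower, than the 5th instar mean.

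Entries of female reproduction and growth gave no passing difference apart from miR-277-y. The reproduction list had 16 tested entries, 10 higher and 6 lower, with a median of 0.13. For miR-184-y, which fly oogenesis requires, the log2 fold change was 0.26 ± 0.15 with an adjusted p of 0.472. For miR-276-y, which in the migratory locust makes eggs hatch together and was the most abundant known entry, the libraries held 136895, 121119 and 143019 CPM in the 5th instar and 134205, 120524 and 110996 CPM in adults. Those ranges overlapped, at a log2 fold change of -0.13 ± 0.15 and an adjusted p of 0.753. In the miR-275 and miR-305 cluster 2 of 6 tested entries were higher and 4 lower (median -0.11). Its miR-305-x, among the 10 most abundant, had a log2 fold change of -0.26 ± 0.16 and an adjusted p of 0.472, while that of the rare miR-305-z was 1.32 ± 0.62 (adjusted p 0.439), with levels of 10.6, 29.5 and 6.08 CPM in the adult libraries, highest in number 2, without which the log2 fold change was 0.39.

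The growth list had 13 tested entries, 9 higher and 4 lower, with a median of 0.21. The growth-promoting miRNA bantam-y held 23043, 22443 and 22663 CPM before and 29219, 18767 and 20281 CPM after the moult. Adult library 1 was above the 5th instar libraries and the other adult libraries were below them, at a log2 fold change of 0.0025 ± 0.17 and an adjusted p of 0.995. Levels of the abundant miR-31-x and miR-750-y had log2 fold changes of 0.036 ± 0.25 and -0.013 ± 0.16, with adjusted p-values of 0.969 and 0.989. The fat metabolism miRNA miR-33-x had a log2 fold change of 0.69 ± 0.44 and an adjusted p of 0.521. Of the wing development list 7 of 14 tested entries were higher and 7 lower (median -0.0066), of the apoptosis list 3 were higher and 4 lower (median -0.16), and of the locust phase and hatching list 3 were higher and 4 lower (median -0.016).

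The 18 nt entries that end in the bases CCA, a group chosen after its values were seen, were on the higher side in adults, most of all in 1 library. The table held 16 of them, 10 were tested, and these had 9 distinct sequences. All 10 were higher in adults, with log2 fold changes from 0.21 to 1.15 and a median of 0.76, and none passed the adjusted p. The other 14 tested entries of 18 nt were higher in 9 cases, with a median of 0.15. Summed levels were 298, 422 and 312 CPM in the 5th instar and 306, 691 and 459.8 CPM in adults. The sums overlapped, and each of the 10 entries was highest in adult library 2, not in adult library 1. This was not particular to the ending. Adult library 2 was also highest for 8 of the other 14 tested entries of 18 nt. Among all tested entries of 18 or 19 nt it was highest for 27 of 38. The entry miR-9993-y had 24.2, 36.1 and 22.2 CPM and then 39.7, 78.9 and 48.2 CPM. Its stages did not overlap, with a log2 fold change of 1.02 ± 0.36 and an adjusted p of 0.296. The predicted entry with the seed ACCACGC had 12.1, 17.6 and 13.2 CPM and 21.2, 38.9 and 29.1 CPM, also without overlap, at a log2 fold change of 1.06 ± 0.37 and an adjusted p of 0.296. Without adult library 2 the log2 fold changes were 0.67 for miR-9993-y and 0.81 for the predicted entry.

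**Figure D5:**
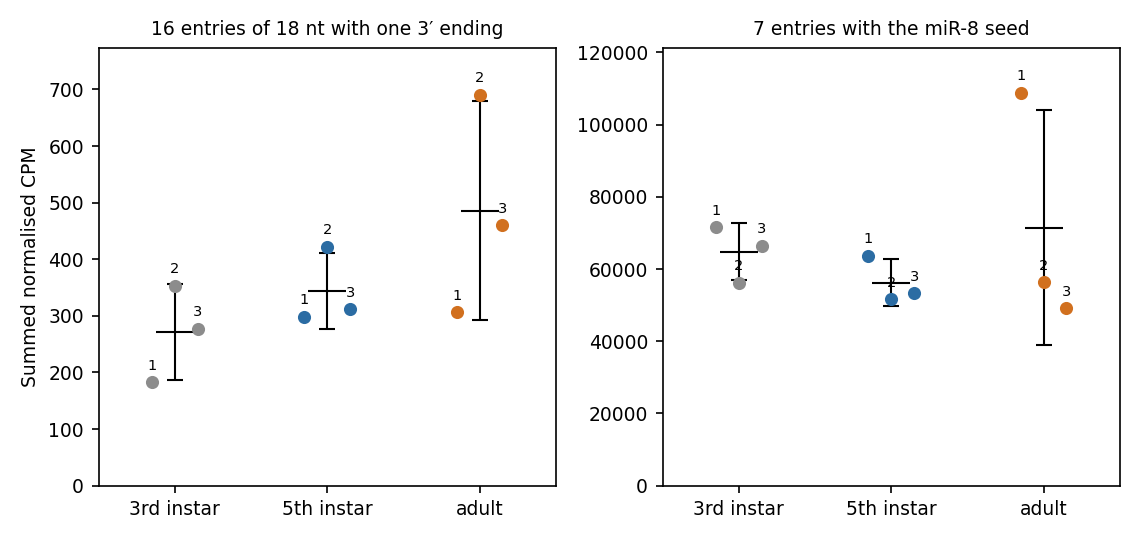
Summed normalised CPM of the 16 entries of 18 nt ending in CCA (left) and of the 7 entries with the miR-8 seed (right) in each library (points, numbered by replicate) with the mean and SD per stage (bars, n = 3). Adult library 2 is highest on the left at 691 CPM and adult library 1 is highest on the right at 108828 CPM, and the other adult libraries lie nearer to the nymphal ones.

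Of the entries predicted by the authors 28 were tested, 17 higher and 11 lower, with a median of 0.18, and none passed the adjusted p. The dominant one, with the seed ATGTCGA, had a log2 fold change of 0.15 ± 0.19 and an adjusted p of 0.779. Beside the entry with the seed ACCACGC, the predicted entries with the smallest p among the higher ones were of 25 nt (0.68 ± 0.45, adjusted p 0.549) and 24 nt (0.96 ± 0.66, adjusted p 0.567). The first was at 0.14 without adult library 3 and the second at -0.18 without adult library 1. Among the lower ones all 3 were of 20 nt, with log2 fold changes of -2.46 ± 1.30, -2.89 ± 2.21 and -0.32 ± 0.22, and the first 2 of these rest on 1 library of the 5th instar each. A lower predicted entry under that level, with the seed ACACACG, had a smaller p than these 3. Its log2 fold change was -1.45 with an adjusted p of 0.400, and it was -0.85 without 5th instar library 2. Families of vertebrates had 18 entries, of which 6 were tested, 4 higher and 2 lower, the plant list had 0 entries and the early embryo list 1 untested entry.

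Ratios of long to short forms were higher in adults for some pairs and lower for others. In 24 pairs of entries where 1 sequence lies within the other, the log2 ratio of the long to the short form was higher in adults in 14 pairs and lower in 10, with a median difference of 0.069 and a range of -0.78 to 0.37. The lowest differences, -0.78 for miR-2765-z over miR-2765-x and -0.73 for miR-14-z over miR-14-y, came from pairs whose stages overlapped. The stages did not overlap in 5 pairs. The ratio was higher in adults for miR-216-z over miR-283-x by 0.37, miR-125-z over miR-125-x by 0.32 and let-7-z over let-7-x by 0.20. It was lower for miR-307-y over miR-67-y (-0.36) and for miR-100-x over miR-99-x (-0.28). A read may count for both sequences of a pair, and these values were not tested.

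To see whether any difference belonged to the final moult, the difference between adult and 5th instar was set against that between 5th and 3rd instar within 1 model. By the quasi-likelihood test of edgeR, adjusted by Benjamini-Hochberg, 0 of 179 entries (0%) passed an adjusted p of 0.05, and 16 had an unadjusted p under 0.05, which is 8.94%. DESeq2 also gave 0. The SE of this contrast was the larger one, 0.34 for miR-277-y against 0.20 for adult over 5th instar. An entry that did not pass is therefore not shown to have equal steps. The step difference was 0.92 ± 0.34 for miR-277-y and -1.67 ± 0.46 for miR-2788-y on the log2 scale, with unadjusted p-values of 0.0212 and 0.00375 and an adjusted p of 0.468 for both. For miR-9-z, which was already at 6302 ± 626 CPM in the 3rd instar, it was -0.42 ± 0.22 with an adjusted p of 0.506. Without 5th instar library 2 the test passed 1 entry, the 18 nt miR-7197-y, which had 0 counts in every 3rd instar library and in 5th instar library 2.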

How the data were processed

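RNA of 15 to 30 nt from total RNA was cut from a gel, made into libraries and sequenced from 1 end over 50 bp on an Illumina HiSeq, per the labels' protocols. The sources used here name no aligner, counter or reference and do not explain the suffixes x, y and z. The deposited table gives raw read counts per miRNA entry, per the file headers. Its TPM values, also deposited by the authors, are counts over a library total and were used only as a check: the listed counts make up 97.2% to 98.6% of that total. Reads carry no molecular identifiers. There are 23 entries with the same sequence as another and 32 that lie within a longer one.

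Counts were scaled by TMM factors (0.854 to 1.166), filtered by edgeR's filterByExpr and fitted in a group-means model over all 9 libraries with edgeR 4.0.16 (robust quasi-likelihood fit, R 4.3.3), with Benjamini-Hochberg adjustment over the 179 tested entries or, for counts summed by seed, 131 seeds. The 3rd instar libraries enter the estimate of spread. DESeq2 1.42.0 was an alternative. Levels are CPM, counts relative to the scaled library total. The SE of a log2 fold change was derived from the test, as its absolute value over the square root of the F statistic. Named are the entries with an adjusted p under 0.05 and the 10 most abundant. In each direction the 10 known and 3 predicted entries with the smallest p are named, among those whose higher stage mean was at least 10 CPM. Relatives of all these by seed, and members of miRNA lists matched by family number, are named too. Members and lists were chosen with earlier results of these data known. Roles of genes are background from other insects.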

Additional observations from a re-analysis of the deposited data

How the results depend on the processing

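The counts of calls depended on the scaling and on single libraries. Entries called numbered 1 with library totals alone (miR-2788-y), 1 with totals that leave out the 5 most abundant entries (miR-277-y), 0 with only the 2 stages in the fit and 1 without entries of 18 or 19 nt (miR-277-y), and 0 to 2 when a library was left out, being 0 without 5th instar library 1, 5th instar library 2 or adult library 3 and 1 without adult library 1. Library totals alone moved the median log2 fold change of all entries from 0.079 to -0.035. Seed families called were 0 with library totals alone, 0 with only the 2 stages and 0 to 2 with a library left out, and the step difference passed 0 to 1 entries. The labels do not say whether replicate numbers pair the samples. Deviations of same-numbered 5th instar and adult libraries correlated at -0.22, -0.10 and 0.23. The values were -0.115, 0.302 and 0.41 for 3rd and 5th instar libraries, and 0.141, 0.146 and 0.015 for 3rd instar and adult libraries. Differently numbered libraries of 2 stages gave -0.407 to 0.262. With so few libraries per stage these values cannot settle whether the numbers mark pairs. With the replicate number as a block 2 entries, 0 step differences and 0 seed families were called, and bantam-y had a log2 fold change of -0.023.

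Of 67 named entries followed over up to 21 alternatives, 48 kept their direction throughout. Small log2 fold changes turned sign. With DESeq2 miR-14-y was at -0.021, bantam-y at -0.045 and miR-31-x at -0.0059, and RLE factors gave -0.021, -0.045 and -0.0059. For miR-317-z the values were -0.017 with DESeq2, -0.0033 with RLE factors, -0.043 with library totals alone, -0.015 with the stricter filter, -0.041 with only the 2 stages, -0.033 with known entries only and -0.018 without entries of 18 or 19 nt. Library totals alone gave -0.073, -0.087 and -0.066, and -0.013 for miR-317-y. The stricter filter gave -0.037, -0.060 and -0.031, only the 2 stages gave -0.063, -0.082 and -0.048, and known entries only gave -0.052, -0.073 and -0.036, in the same order. Without entries of 18 or 19 nt miR-14-y was at -0.011 and bantam-y at -0.053, and without the most abundant entry bantam-y was at -0.0052. Totals without the 5 most abundant entries gave 0.023 for miR-306-x, 0.0010 for miR-125-x and 0.014 for miR-750-y, and no filter gave 0.012 for miR-306-x and 0.0072 for miR-750-y. With a library left out, ranges that crossed 0 were -0.22 to 0.021 for miR-9-x, -0.13 to 0.048 for miR-306-x, -0.054 to 0.58 for miR-8-y, -0.19 to 0.51 for miR-8-z, -0.11 to 0.091 for miR-14-y, -0.24 to 0.11 for bantam-y, -0.13 to 0.0039 for miR-71-x, -0.10 to 0.027 for miR-125-x, -0.063 to 0.41 for miR-12-z, -0.29 to 0.22 for miR-317-z, -0.48 to 0.062 for miR-263-x, -0.21 to 0.22 for miR-31-x, -0.17 to 0.063 for miR-750-y, -0.058 to 0.24 for the dominant predicted entry, -5.59 to 0.29 for miR-8503-z, -0.18 to 1.43 for the predicted 24 nt entry, and -3.03 to 0.030 and -3.52 to 0.24 for the 2 predicted 20 nt entries that were high in 1 library of the 5th instar. The cause of these shifts was not tested. Depth limits the comparison most in adult library 1, where a count of 0 allows 1.99 normalised CPM.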

Other observations

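A few entries were high in only 1 or a few libraries. The entry miR-8503-z had 11.1, 3.80 and 561 CPM in the 5th instar libraries and 21.2, 3.42 and 4.56 CPM in the adult libraries. Its log2 fold change of -4.41 rested on 5th instar library 3, since without that library it was 0.29. A predicted entry of 20 nt had 193, 89.8 and 2109 CPM and then 234, 61.2 and 142 CPM, and it too was high in 5th instar library 3, with a log2 fold change of 0.030 without it. Another predicted entry of 20 nt had 135, 199 and 0 CPM in the 3rd instar, 3.88, 65.5 and 1.503 CPM in the 5th instar and 4.63, 2.18 and 3.04 CPM in adults, so 3 nymphal libraries held it well above the rest. The entry miR-8315-y had 33.4, 41.8 and 0 CPM in the 5th instar and 3.31, 5.59 and 1.52 CPM in adults, with 5th instar library 3 at 0, which allows up to 1.13 CPM.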
